A study of Mus musculus with 36 samples.

Results

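All 44 collagen genes were followed in mouse kidneys in which Pkd1 or Pkd2 had been deleted from the collecting duct, at 3 ages after birth. The genes are those whose symbol reads Col, a number, a and a number. They were 44 of the 20458 genes that could be given a symbol, and they took 54 of the 29996 rows of the count table. Where a gene had several rows, the row with the highest mean count was used. By the way their chains assemble there were 11 fibrillar, 9 basement membrane and 9 FACIT collagens, 6 of the beaded filament, 3 of the short chain network and 6 transmembrane or other collagens.

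RNA-Seq was made from the kidneys of C57BL/6 mice in 12 groups of 3 libraries, 36 in all. The knockout (KO) groups were Pkd1f/f:HoxB7-Cre and Pkd2f/f:HoxB7-Cre mice, and the control (WT) groups were mice that carried the same floxed alleles, Pkd1f/f or Pkd2f/f, without Cre. Each was sampled at P1, P3 and P7, the days after birth. HoxB7-Cre is active in the ureteric bud and the collecting duct that grows from it, so the genes were cut in a part of the cells while RNA came from the whole kidney. Nothing in the labels says how many animals gave each library, and p-values measure the spread between these libraries. In such bulk RNA, fewer cells of a type and less RNA per cell cannot be told apart.

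Collagen chains wind around each other in a stiff helix. The fibrillar types, led by types I and III, pack into the cables of the interstitium and of scar tissue. Type IV chains form the sheet of every basement membrane: Col4a1 and Col4a2 chains are found in all of them, whereas Col4a3, Col4a4 and Col4a5 chains build the glomerular filter and the membranes of distal tubules, and their loss causes Alport syndrome. FACIT collagens sit on the surface of fibrils and link them to their surroundings. Type VI makes fine beaded filaments around cells, and type VIII makes hexagonal nets, chiefly in vessel walls. The nephrons of a newborn mouse are still forming, and their basement membranes are being laid down, in the week these libraries cover. In polycystic kidney disease, fibrosis accompanies the growth of cysts.

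Total counts were between 7179152 and 15850818 per library. Summed adrenal markers were 4891 counts per 1000000 (CPM) in Pkd2 P3 WT replicate 2, 1577 in Pkd1 P7 KO replicate 1 and 1340 in Pkd2 P7 KO replicate 3, against 8.22 to 35.4 in the other 33 libraries. Y-linked genes had 3926 counts or more in 18 of the 36 libraries and 5 or fewer in the others, and at P7 in the Pkd1 series the former were the 3 KO and the latter the 3 WT libraries. In that comparison sex and genotype cannot be told apart. Pkd2 mRNA was lower in Pkd2 KO than in Pkd2 WT at P7 (edgeR log2 fold change -0.29 ± 0.052, adjusted p = 0.0115), whereas Pkd1 mRNA did not pass the test in Pkd1 KO at P7 (edgeR log2 fold change 0.10 ± 0.11, adjusted p = 0.56). At P1 and P3 neither gene passed the test in its own KO. The count of the floxed gene over a whole kidney is therefore no check of the labels. The files' unit of counting is the transcript, and genes with several rows had a median of 0.37 counts per kb against 54.67 for genes with 1 row. Of the collagens, 9 had several rows (Col2a1, Col4a5, Col6a3, Col6a6, Col9a1, Col13a1, Col17a1, Col18a1 and Col25a1), and for these a low level and reads lost between the rows cannot be told apart. They enter no comparison of levels between genes. The same limit holds for any marker or synthesis gene with several rows, and which of those genes have them is not listed here.

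The promoter sequences that the RefSeq promoter table (GRCm38.p6, the same assembly as mm10) gives for called collagens are shown first. The table held 35 of the 44 members and 10 of the 13 called in KO at P7 in either series, leaving Col1a1, Col12a1 and Col26a1 without an entry. Of the 250 bases before the start in that table, those inside the gene's own RefSeq span were cut off, and a run is shown where at least 150 bases were left and no GENCODE exon overlapped them. That left 5 members. The runs read 5′ to 3′ on the gene's strand, with capitals for matches to a CCAAT box (CCAAT), a GC box (GGGCGG) or a TATA box (TATAAA) on either strand. Col8a1 (chr16:57754738-57754987, minus strand) rose in KO of both series. Col5a1 (chr2:27886175-27886380, plus strand) and Col11a1 (chr3:114030290-114030478, plus strand) rose in Pkd2 KO. Col6a3 (chr1:90844002-90844221, minus strand) rose in Pkd2 KO and fell in Pkd1 KO, and Col4a5 (chrX:141475169-141475369, plus strand) fell in Pkd1 KO.
Col8a1: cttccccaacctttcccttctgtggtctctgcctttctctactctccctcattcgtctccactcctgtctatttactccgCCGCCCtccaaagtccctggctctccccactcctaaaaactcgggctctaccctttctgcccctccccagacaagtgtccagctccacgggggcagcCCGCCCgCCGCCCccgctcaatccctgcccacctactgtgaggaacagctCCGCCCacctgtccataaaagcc
Col5a1: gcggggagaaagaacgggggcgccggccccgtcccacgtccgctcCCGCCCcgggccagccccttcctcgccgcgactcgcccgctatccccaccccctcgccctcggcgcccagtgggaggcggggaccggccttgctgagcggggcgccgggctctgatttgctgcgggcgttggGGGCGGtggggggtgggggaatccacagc
Col11a1: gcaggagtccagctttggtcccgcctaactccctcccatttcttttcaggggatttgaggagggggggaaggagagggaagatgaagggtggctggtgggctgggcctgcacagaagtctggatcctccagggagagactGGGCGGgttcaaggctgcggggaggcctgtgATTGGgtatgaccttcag
Col6a3: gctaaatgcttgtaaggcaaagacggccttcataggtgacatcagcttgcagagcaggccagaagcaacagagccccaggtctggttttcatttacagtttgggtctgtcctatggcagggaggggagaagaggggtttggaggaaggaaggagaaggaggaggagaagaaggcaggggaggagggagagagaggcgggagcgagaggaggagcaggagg
Col4a5: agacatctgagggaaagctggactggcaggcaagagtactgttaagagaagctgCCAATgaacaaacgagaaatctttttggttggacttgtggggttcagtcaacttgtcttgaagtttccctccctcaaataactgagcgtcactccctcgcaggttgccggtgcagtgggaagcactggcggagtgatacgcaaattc
The Col8a1 run holds 4 GC boxes, the Col5a1 run 2, the Col11a1 run 1 with 1 CCAAT box, and the Col4a5 run 1 CCAAT box, whereas the Col6a3 run holds none of the 3 motifs and no run holds TATAAA. Over all 32851 windows of 250 bases in the table, 32.7% held a GC box, 33.9% a CCAAT box and 12.4% a TATA box. Among the 38 windows of collagen genes, 22 held a GC box, 13 a CCAAT box and 5 a TATA box. The RefSeq spans of Col4a1 and Col4a2 on chromosome 8, which are transcribed head to head, share 85 bases. Those of Col4a6 and Col4a5 on chromosome X, also head to head, lie 1274 bases apart.

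The levels of the collagens were ordered by CPM per kb of transcript over the 35 members with 1 row. In Pkd1 WT kidneys at P7 the basement membrane chain Col4a1 stood at 707 ± 159 CPM per kb (SD, n = 3), and the fibrillar chain Col3a1, which forms the fine reticular fibers, at 659.6 ± 142. Their SDs overlapped. Col1a2 followed at 519.9 ± 76.7, Col4a2 at 484 ± 77.8 and Col1a1 at 364 ± 70.5, and the SD of each of these 3 overlapped that of its neighbour. Col15a1, a basement membrane proteoglycan, stood at 179 ± 67.3, ahead of Col6a1 at 157 ± 16.3 and Col6a2 at 144 ± 18.97, again within their spread.

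The same 8 genes led in Pkd2 WT kidneys at P7, in the same order, with Col4a1 at 716 ± 39.6 CPM per kb and Col3a1 at 695 ± 26.7. There Col1a2, at 481 ± 19.2, lay outside the SD of Col3a1. The FACIT class was led in Pkd1 WT by Col16a1 at 62.6 ± 9.15, Col14a1 at 49.9 ± 5.66 and Col12a1 at 24.0 ± 4.94 CPM per kb. Col12a1 codes for a large linker on the surface of type I fibrils. Of the chains of the glomerular network, Col4a3 stood at 23.9 ± 6.33 and Col4a4 at 17.9 ± 8.28 in Pkd1 WT, within their spread and that of Col12a1, and at 54.1 ± 44.1 and 32.9 ± 23.9 in Pkd2 WT, where 1 library stood apart. Col4a6, a type IV chain outside that network, was at 5.82 ± 2.24 in Pkd1 WT. Among the lowest in Pkd1 WT, Col8a1 stood at 1.31 ± 0.488, Col9a3 at 0.849 ± 0.241 and Col10a1, a collagen of growth plate cartilage, at 0.0159 ± 0.0275.

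The 6 members under 10 counts in most libraries were Col9a1, Col10a1, Col13a1, Col17a1, Col19a1 and Col25a1. The highest single count was 81469, for Col4a1 in Pkd1 P7 WT replicate 2. Over the collagens as a whole, the share of all counts was 2.13% ± 0.388 (SD, n = 3) in Pkd1 WT at P7 and 1.70% ± 0.161 in Pkd1 KO, and 2.099% ± 0.039 in Pkd2 WT at P7 and 2.55% ± 0.225 in Pkd2 KO. The Pkd1 groups overlapped, at 1.69 to 2.39% and 1.55 to 1.87%. The Pkd2 groups did not, at 2.06 to 2.14% and 2.29 to 2.70%.

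Summed CPM showed how the classes shared this. In Pkd2 kidneys at P7 the fibrillar sum was 9083 ± 202 CPM (SD, n = 3) in WT and 11909.9 ± 1483 in KO, and the FACIT sum was 814 ± 64.4 and 1970.3 ± 134. The groups did not overlap in either class. The basement membrane sum was 9686 ± 655 in Pkd2 WT and 10560.1 ± 744 in Pkd2 KO, which overlapped. In Pkd1 kidneys the FACIT sum was 917 ± 111 in WT and 1091 ± 132 in KO, without overlap, the fibrillar sum was 9733 ± 1441 in WT and 9143 ± 893 in KO, and the basement membrane sum was 9310.3 ± 2084 and 6444 ± 715. The latter 2 overlapped between WT and KO. These sums follow a few abundant chains, so the genes were tested one by one.

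**Figure D1:**
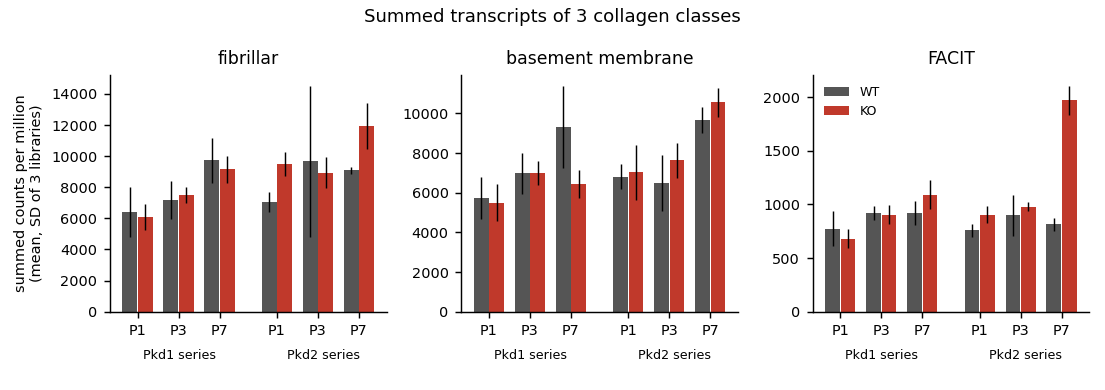
Summed counts per 1000000 (bars, mean of 3 libraries; lines, SD) of the fibrillar, basement membrane and FACIT collagens by day in the Pkd1 and Pkd2 series, WT in grey and KO in red. The FACIT sum of Pkd2 KO at P7, 1970 CPM, stands above the other 11 groups, and the Pkd2 WT group at P3 includes replicate 2, which carried adrenal markers.

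How the collagens changed over the week in kidneys without Cre was asked first, in the WT libraries of each series. A gene was called when the Benjamini-Hochberg adjusted p of edgeR's quasi-likelihood test, over all transcripts kept, was under 0.05. Between P1 and P7, 12 of 38 tested members were called in Pkd1 WT, 8 of them higher and 4 lower, where 17.9% of all 12527 transcripts tested were called, 8.92% higher and 9.03% lower. In Pkd2 WT it was 9 of 39, 4 higher and 5 lower, against 19.2% of 12633 transcripts, 7.95% higher and 11.3% lower. The 2 series have no libraries in common here, and 6 genes were called in both, 6 of the 12 in Pkd1 and 6 of the 9 in Pkd2. Y-linked reads were present in 2 of 3 Pkd1 WT libraries at P1 and in 0 of 3 at P7, so day and sex partly moved together there. In Pkd2 WT they were present in 1 of 3 and 2 of 3. With a term for Y-linked reads in a fit of all 18 Pkd1 libraries, edgeR called 3 collagens in Pkd1 WT. The same fit called 1012 of all 12527 transcripts.

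Col11a2, Col9a3 and Col2a1, all known from cartilage, fell in both series, whereas Col11a1 and Col9a2, also known from cartilage, were not called in either (edgeR log2 fold change -0.65 ± 0.36 and -0.33 ± 0.58, adjusted p = 0.24 and 0.74 in Pkd1, and -0.28 ± 0.29 and -1.25 ± 0.51, adjusted p = 0.53 and 0.12 in Pkd2). Col11a2, a fibrillar chain, gave 36.2, 26.9 and 52.7 CPM in the Pkd1 WT libraries at P1 and 10, 7.10 and 12.1 at P7, and in the Pkd2 WT libraries 25.8, 37.1 and 39.5 and 9.96, 6.89 and 8.72. The days did not overlap in either series (edgeR log2 fold change -2.01 ± 0.29, adjusted p = 0.00179 in Pkd1 and log2 fold change -2.03 ± 0.22, adjusted p = 0.000992 in Pkd2). Col9a3, a FACIT chain that coats type II fibrils, went from 7.36, 5.78 and 17.5 to 3.08, 1.71 and 2.46 CPM in Pkd1 WT and from 5.26, 8.29 and 9.86 to 2.28, 1.69 and 1.94 in Pkd2 WT (edgeR log2 fold change -2.101 ± 0.43, adjusted p = 0.00832, and log2 fold change -2.01 ± 0.27, adjusted p = 0.00239). Again every library at P7 lay under every library at P1.

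Col2a1, the main chain of cartilage fibrils, had 23, 9 and 16 counts in Pkd1 WT at P1 and 2, 3 and 0 at P7, and 10, 28 and 13 and 0, 0 and 1 in Pkd2 WT (edgeR adjusted p = 0.00611 and 0.00567). Col9a1 had 3, 4 and 5 counts in Pkd2 WT at P1 and 0 in all 3 libraries at P7 (edgeR adjusted p = 0.0272), and it was at 0 at P7 in the other groups too. Both genes have several rows, and with so few counts no fold is given. Of the cartilage markers beside them, Acan was at 0.389 to 3.77 CPM over the 36 libraries and Matn1 at 0 to 0.986, and the summed list of 7 markers was 44.7 to 70.8 CPM in Pkd1 WT at P1 and 28.6 to 40.0 at P7, mostly Sox9 and Hapln1. Their part in the fall was not tested.

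Col8a1, a short chain collagen of vessel walls, fell as well. It gave 17.9, 12.8 and 13.8 CPM in Pkd1 WT at P1 and 4.27, 6.55 and 9.25 at P7 (edgeR log2 fold change -1.17 ± 0.31, adjusted p = 0.0258), and 11.1, 12.2 and 20.9 and 2.74, 3.17 and 6.86 in Pkd2 WT (edgeR log2 fold change -1.82 ± 0.44, adjusted p = 0.0201). The days did not overlap in either series.

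Of the basement membrane chains, Col4a2 rose in both series. It gave 2006, 2187 and 1525 CPM at P1 and 3349, 3469.6 and 2547 at P7 in Pkd1 WT (edgeR log2 fold change 0.70 ± 0.16, adjusted p = 0.0158), and 2440.1, 2176 and 2028 and 3139, 2948 and 2907 in Pkd2 WT (edgeR log2 fold change 0.41 ± 0.12, adjusted p = 0.0458). Its partner Col4a1 went from 3138, 3257 and 2472 to 4959, 5562 and 3513 CPM in Pkd1 WT (edgeR log2 fold change 0.65 ± 0.18, adjusted p = 0.0323). In Pkd2 WT it was 3783, 3676 and 3271 and 5009.9, 4722 and 4486 (edgeR log2 fold change 0.38 ± 0.13, adjusted p = 0.0674), which did not pass the test. Over the class, all 9 members had a higher mean at P7 in Pkd1 WT and 8 of 9 in Pkd2 WT. Of these, 2 and 3 were called. The median log2 fold change was 0.70 and 0.92, where all transcripts had 0.0078 and -0.014. In Pkd2 WT at P7, replicate 3 stood apart for Col4a4 (608 CPM against 228 and 159.9) and Col4a6 (176 against 53.6 and 29.2). It did so for Col4a3 too, as given below, whereas Col4a1 and Col4a2 were lowest in that library. The class median without it was not taken. Podocyte markers moved over the same days. All 6 were called in both WT series, 5 higher and Wt1 lower, and the list's median log2 fold change was 0.76 in Pkd1 and 0.80 in Pkd2. Their summed level was 1341 to 1615 CPM at P1 and 1679 to 2434 at P7 in Pkd1 WT and 1328 to 1664 and 2077 to 2589.6 in Pkd2 WT. Their part in the rise of these chains was not tested.

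Col4a3, of the glomerular network, was called in Pkd2 WT only, with 167, 92.6 and 102 CPM at P1 and 276, 216 and 897 at P7 (edgeR log2 fold change 1.92 ± 0.54, adjusted p = 0.0358). P7 replicate 3 stood apart, and without it the log2 fold change was 0.99 and the gene was no longer called. In Pkd1 WT it was 1.08 ± 0.43 (edgeR adjusted p = 0.11), and the difference between the series was not tested. Col18a1, which releases endostatin when cut, was called in Pkd2 WT alone, at 62.9, 54.9 and 45.8 and 104, 86.6 and 153 CPM (edgeR log2 fold change 1.04 ± 0.25, adjusted p = 0.0208). It is 1 of the genes with several rows.

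Among the others that rose, Col27a1, a fibrillar chain, was called in both series (edgeR log2 fold change 0.53 ± 0.12, adjusted p = 0.0155 in Pkd1 WT and log2 fold change 0.63 ± 0.19, adjusted p = 0.0464 in Pkd2 WT). Col14a1, a FACIT that limits fibril width, went from 164, 154 and 136 to 319.6, 258 and 273 CPM in Pkd1 WT (edgeR log2 fold change 0.90 ± 0.14, adjusted p = 0.00243), whereas in Pkd2 WT it was 0.48 ± 0.22 (adjusted p = 0.16). Col6a1 and Col6a2, partner chains of type VI, rose in Pkd1 WT by 0.65 and 0.73 on the log2 scale (edgeR adjusted p = 0.0126 and 0.0103), and were 0.25 ± 0.26 and 0.35 ± 0.21 in Pkd2 WT (adjusted p = 0.54 and 0.28). Col1a2 (edgeR log2 fold change 0.62 ± 0.19, adjusted p = 0.0496) and Col6a5 (edgeR log2 fold change 2.65 ± 0.71, adjusted p = 0.0273) were called in Pkd1 WT, and Col6a5 had overlapping days, with 3.10, 0.845 and 2.63 CPM at P1 and 19.9, 2.19 and 21.3 at P7. Both lost the call in most fits without 1 library, since they kept it in 2 of 9 and 4 of 9.

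**Figure D2:**
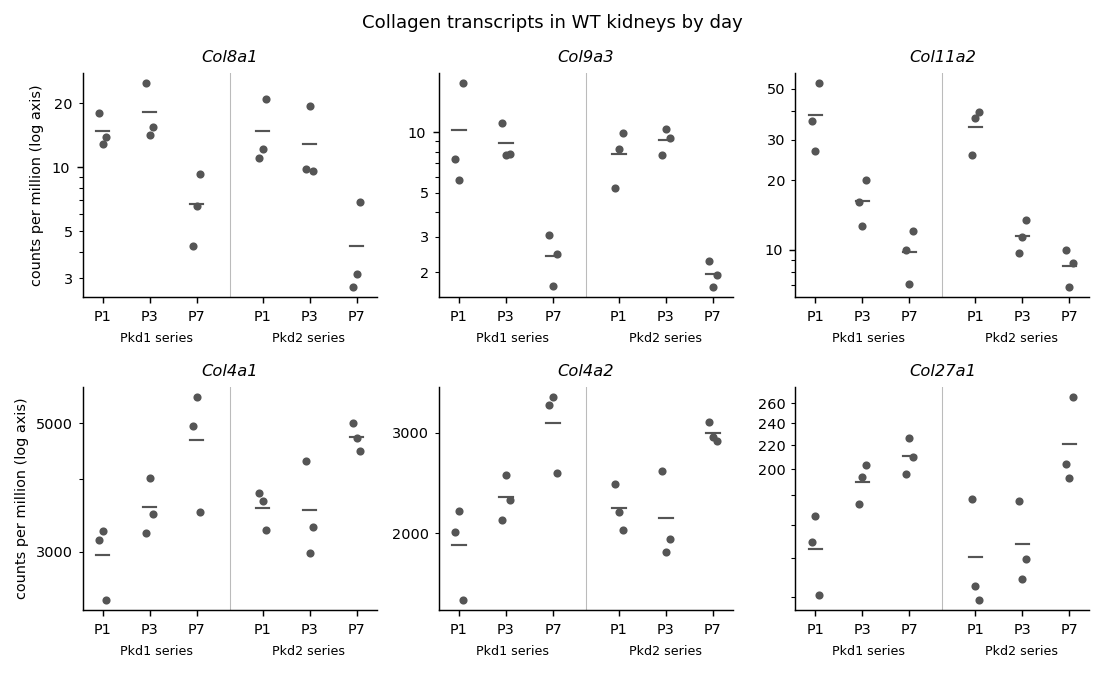
Counts per 1000000 (log axis) of 6 collagens in each WT library at P1, P3 and P7 of the Pkd1 and Pkd2 series, with a line at the mean of 3 libraries. Col8a1, Col9a3 and Col11a2 sit lower at P7 than at P1 in every library of both series, and Col4a2 and Col27a1 sit higher, whereas Col4a1 does so without overlap as well but passed the test in Pkd1 WT only.

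At P3 against P1 no collagen was called in either WT series, where edgeR called 0.12% of transcripts in Pkd1 WT and 0.00792% in Pkd2 WT. At an unadjusted p under 0.05 there were 8 in Pkd1 WT and 5 in Pkd2 WT, where 1478 of 12527 and 1890 of 12633 transcripts were. DESeq2 called 2 in each, against 1.56% and 2.62% of transcripts. Col11a2 had the smallest p in both, at 16.1, 12.7 and 20.01 CPM at P3 in Pkd1 WT and 9.67, 11.4 and 13.4 in Pkd2 WT (edgeR log2 fold change -1.24 ± 0.28, adjusted p = 0.16 and log2 fold change -1.56 ± 0.21, adjusted p = 0.0909).

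The comparison of KO with WT asked which collagens moved with the loss of Pkd1 or Pkd2. At P7, 9 of 39 tested collagens were called in Pkd2 KO, 7 higher and 2 lower, where 14.1% of all transcripts were called, 7.88% higher and 6.17% lower. In Pkd1 KO it was 8 of 38, 2 higher and 6 lower, where 13.5% of all transcripts were called, 6.32% higher and 7.14% lower. The median log2 fold change of the tested collagens was 0.19 in Pkd2 KO and -0.30 in Pkd1 KO, and that of all transcripts 0.0004 and 0.0014. The libraries of the 2 series are separate, and 4 genes were called in both, 4 of the 8 in Pkd1 and 4 of the 9 in Pkd2. These were Col8a1 and Col12a1 higher in both, Col6a5 lower in both, and Col6a3 higher in Pkd2 KO and lower in Pkd1 KO. With 1 library left out, the count ran from 1 (without WT replicate 1) to 15 (without WT replicate 3) in Pkd1 KO and from 4 (without WT replicate 1, KO replicate 2 or KO replicate 3) to 11 in Pkd2 KO. Calls over all transcripts moved as well. In Pkd1 KO they ran from 156 of 12527 (without WT replicate 1) to 3191 (without WT replicate 3). In Pkd2 KO they ran from 667 of 12633 (without WT replicate 1) to 2059 (without WT replicate 3).

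**Figure D3:**
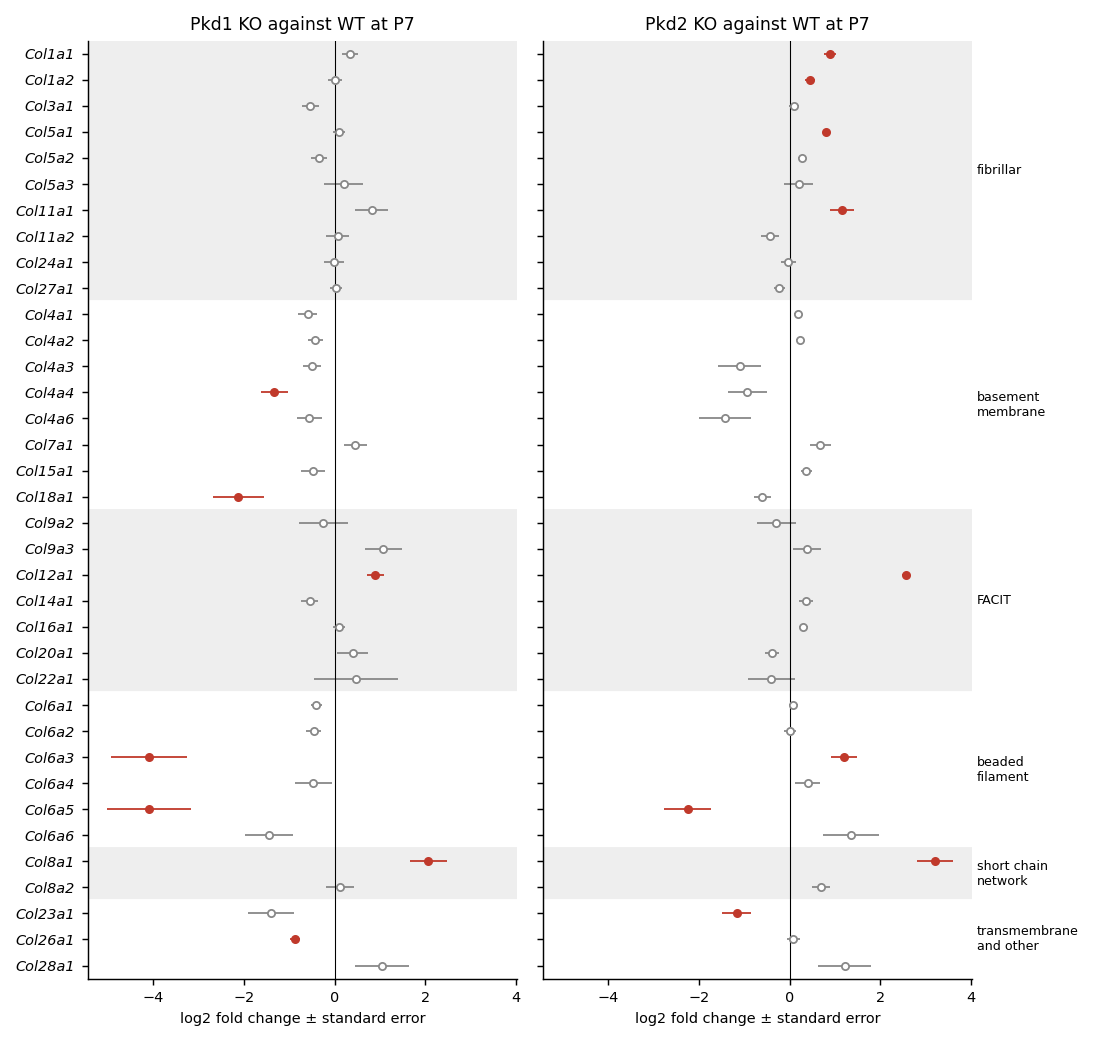
Log2 fold change (points) and standard error (lines) of KO against WT at P7 for 36 collagens in both series, grouped by class, with filled red points for members called by edgeR. Col8a1 and Col12a1 lie to the right and Col6a5 to the left in both series, and Col6a3 lies on opposite sides. Col2a1, Col4a5 and Col9a1, with at most 3 counts in all in a group, are not drawn.

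Col12a1 had the smallest p of the family in Pkd2 KO. It gave 226, 216 and 186 CPM in the Pkd2 WT libraries at P7 and 1235, 1145 and 1303 in the KO libraries, and 284, 329.5 and 216 and 516, 430.1 and 598 in the Pkd1 series. All KO libraries lay above all WT libraries in each series, and the Pkd2 KO libraries at P7 lay above every other library of the study, the highest of which had 598 CPM. The fold change was 2.56 ± 0.093 (log2 ± SE, edgeR adjusted p = 3.87e-05) in Pkd2 and 0.90 ± 0.18 (edgeR adjusted p = 0.022) in Pkd1. It was called in 6 of 6 fits without 1 library in Pkd2, and in 3 of 6 in Pkd1. At P1 and P3 the KO and WT libraries of both series overlapped, with KO at 282, 384 and 361 CPM in Pkd2 at P3.

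Col8a1 rose in KO of both series at P7, the day at which it was lower than at P1 in WT. At P7 it gave 2.74, 3.17 and 6.86 CPM in Pkd2 WT and 30.1, 28.9 and 56.5 in Pkd2 KO (edgeR log2 fold change 3.20 ± 0.40, adjusted p = 0.00284), and 4.27, 6.55 and 9.25 in Pkd1 WT and 32.5, 13.96 and 37.0 in Pkd1 KO (edgeR log2 fold change 2.06 ± 0.41, adjusted p = 0.0193). The groups did not overlap. At P1 it had been 16.4, 10.5 and 11.0 CPM in Pkd2 KO and 18.9, 19.7 and 12.2 in Pkd1 KO, overlapping WT in both series. Its sister chain Col8a2 was 44.6, 62.2 and 35.0 CPM in Pkd2 WT and 87.7, 67.0 and 70.8 in Pkd2 KO (edgeR log2 fold change 0.68 ± 0.20, adjusted p = 0.0595), without overlap but short of the threshold, and 0.11 ± 0.31 in Pkd1 (adjusted p = 0.82).

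Of the fibrillar class, edgeR called 4 of 11 higher in Pkd2 KO and none of 11 in Pkd1 KO, with a median log2 fold change of 0.28 and 0.026. In Pkd1 KO 1 of the 11 had an unadjusted p under 0.05, where 4186 of 12527 transcripts did. DESeq2 called 1 (Col3a1) in Pkd1 KO and 5 in Pkd2 KO, where it called 2763 of 12527 and 2254 of 12633 transcripts. Col1a1, the main chain of type I, gave 1647, 1684 and 1291 CPM in Pkd2 WT and 2429, 3161 and 2919 in Pkd2 KO (edgeR log2 fold change 0.89 ± 0.13, adjusted p = 0.00543). In the Pkd1 series it gave 2634, 1857 and 1978 and 2555, 2401 and 3229.6, which overlapped (edgeR log2 fold change 0.34 ± 0.18, adjusted p = 0.23). Its partner Col1a2 gave 2579, 2669.8 and 2465 CPM in Pkd2 WT and 2959, 3688 and 3771 in Pkd2 KO (edgeR log2 fold change 0.44 ± 0.10, adjusted p = 0.0293), and was called in 1 of 6 fits without 1 library. In Pkd1 its log2 fold change was -0.0016 ± 0.16.

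Col5a1, the chain that seeds type I fibrils and sets their width, rose from 465, 488 and 440.2 CPM in Pkd2 WT to 749.7, 836 and 820.1 in Pkd2 KO (edgeR log2 fold change 0.80 ± 0.068, adjusted p = 0.000622), a narrow spread in both groups. In the Pkd1 series it was 585, 530.2 and 419.9 and 549.6, 516 and 571, which overlapped (edgeR log2 fold change 0.092 ± 0.14, adjusted p = 0.68). Col11a1 gave 19.5, 14.8 and 34.0 CPM in Pkd2 WT and 47.5, 48.6 and 53.7 in Pkd2 KO (edgeR log2 fold change 1.15 ± 0.26, adjusted p = 0.027), and 0.82 ± 0.36 in Pkd1 (adjusted p = 0.15).

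Col3a1 did not pass the test in either series. It was 3739, 3826 and 4029 CPM in Pkd2 WT and 3427, 4378 and 4471 in Pkd2 KO (edgeR log2 fold change 0.093 ± 0.11, adjusted p = 0.64), and 3849.6, 4355 and 2806 in Pkd1 WT and 2700.5, 2258 and 2607 in Pkd1 KO (edgeR log2 fold change -0.54 ± 0.19, adjusted p = 0.084). In the Pkd1 series the KO libraries lay below the WT libraries, short of the threshold.

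Smooth muscle markers were also higher in KO at P7. All 5 of the tested markers (Acta2, Tagln, Cnn1, Des and Actg2) were called higher in KO of both series at P7, and the summed list was 1189.8 to 1307 CPM in Pkd2 WT, 4130.0 to 4667 in Pkd2 KO, 1300.5 to 1438 in Pkd1 WT and 4132 to 4322 in Pkd1 KO. Macrophage markers summed to 188 to 227 and 290.0 to 392.3 CPM in Pkd2 WT and KO, with 3 of 5 called higher, and to 178 to 277 and 280.0 to 345 in Pkd1, with 1 of 5. Interstitial stroma markers were called in both directions, with 1 of 6 higher and 2 lower in Pkd2 KO and 1 lower in Pkd1 KO. Their part in the collagen changes was not tested.

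**Figure D4:**
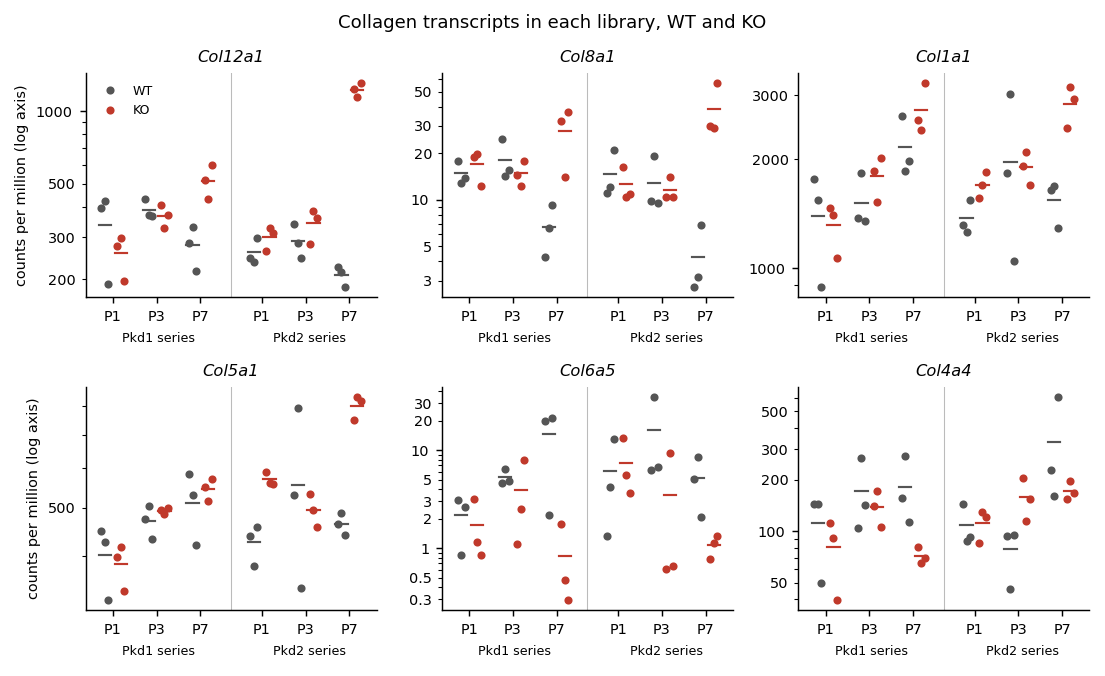
Counts per 1000000 (log axis) of 6 collagens in each library at P1, P3 and P7 of the Pkd1 and Pkd2 series, WT in grey and KO in red, with a line at the mean of 3 libraries. Col12a1 and Col8a1 separate WT from KO in both series at P7, Col1a1 and Col5a1 do so in the Pkd2 series, and Col6a5 and Col4a4 are lower in Pkd1 KO.

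Of the basement membrane class, 3 of 9 were called lower in Pkd1 KO (Col4a4, Col4a5 and Col18a1) and none of 9 in Pkd2 KO by edgeR, where 6 of 9 had an unadjusted p under 0.05 and DESeq2 called 3. Of all 12633 transcripts in Pkd2 KO, 3750 had an unadjusted p under 0.05 and DESeq2 called 2254. The median log2 fold change of the class was -0.56 in Pkd1 and -0.60 in Pkd2, and the latter was 0.13 without Pkd2 P7 WT replicate 3. Col4a4 gave 156, 274 and 112 CPM in Pkd1 WT and 80.6, 64.9 and 69.9 in Pkd1 KO (edgeR log2 fold change -1.33 ± 0.29, adjusted p = 0.027), with no overlap and a call in 2 of 6 fits without 1 library. Its neighbour on chromosome 1, Col4a3, gave 170.0, 267 and 176 and 163, 148 and 119.6 CPM (edgeR log2 fold change -0.51 ± 0.20, adjusted p = 0.11), without overlap and short of the threshold.

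Marker lists of nephron, duct and vessel cells moved in Pkd1 KO at P7 as well. Of the nephron tubule markers 2 of 3 were called lower, and the summed list was 2789 to 3962 CPM in WT and 1161 to 1982 in KO. That sum was mostly Slc34a1 and Lrp2. Slc12a1 gave 3.01, 8.47 and 4.63 CPM in WT and 1.43, 0.635 and 1.395 in KO. Umod and Slc12a3 were at 0, which is not read as absence of these transcripts, since reads may be lost where a gene has several rows. Of the collecting duct markers 3 of 6 were called lower and Gata3 higher, with sums of 1310.3 to 1542 and 589 to 798 CPM. Of the endothelial markers 1 of 4 was called lower, with sums of 733 to 826 and 556 to 649 CPM, and of the podocyte markers 1 of 6, with sums of 1679 to 2434 and 1356 to 1923 CPM. WT and KO overlapped for the podocyte sum and not for the other 3. The Pkd2 series at P7 had lower KO sums too. Nephron tubule markers summed to 2903 to 3865.5 CPM in Pkd2 WT and 2078 to 2309 in Pkd2 KO. Collecting duct markers gave 1311.5 to 1627 and 754 to 885 CPM, and endothelial markers 818 to 856 and 592 to 686. Only the podocyte sums overlapped there, at 2077 to 2589.6 and 1503 to 2196 CPM. The part of these cells in the fall of the type IV chains was not tested.

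In the Pkd2 series, WT replicate 3 stood apart for these chains. Col4a3 gave 276, 216 and 897 CPM in Pkd2 WT and 194, 236 and 212 in Pkd2 KO, Col4a4 228, 159.9 and 608 and 153, 196 and 167, and Col4a6 53.6, 29.2 and 176 and 28.4, 36.2 and 30.7. That library was the only one of the 6 with no more than 5 counts from Y-linked genes. With it the log2 fold changes were -1.10 ± 0.48, -0.94 ± 0.43 and -1.43 ± 0.57 (edgeR adjusted p = 0.17, 0.19 and 0.14), and without it -0.19, -0.16 and -0.37. None of the 3 was called with or without it. Without WT replicate 2 Col4a6 was called (log2 fold change -1.84).

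The abundant pair Col4a1 and Col4a2 did not pass the test at P7. Col4a1 was 4959, 5562 and 3513 CPM in Pkd1 WT and 2980.1, 2688 and 3582 in Pkd1 KO (edgeR log2 fold change -0.60 ± 0.20, adjusted p = 0.0804), and 5009.9, 4722 and 4486 and 4987, 5682 and 5429 in the Pkd2 series (edgeR log2 fold change 0.19 ± 0.089, adjusted p = 0.20). Col4a2 was -0.43 ± 0.17 in Pkd1 and 0.22 ± 0.079 in Pkd2 (adjusted p = 0.11 and 0.11). Col4a6 in Pkd1 was -0.56 ± 0.27 (adjusted p = 0.19).

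Col4a5, Col18a1 and Col6a3 are genes with several rows, and their calls in Pkd1 KO rest on counts that also varied between libraries of 1 group. Col4a5 had 11, 44 and 4 counts in Pkd1 WT and 1, 0 and 1 in Pkd1 KO (edgeR adjusted p = 0.0401), too few for a fold. Col6a3 had 96, 182 and 15 counts in Pkd1 WT and 4, 6 and 5 in Pkd1 KO (edgeR log2 fold change -4.10 ± 0.84, adjusted p = 0.0216), and Col18a1 1263, 1375 and 354 and 119, 129 and 383 (edgeR log2 fold change -2.12 ± 0.55, adjusted p = 0.0415). WT replicate 3 was the lowest WT library for all 3 genes, as was P1 replicate 3 for Col6a3 and Col18a1 in both genotypes of the Pkd1 series, with 6 and 5 counts of Col6a3. Over all genes with several rows, 113 of 1901 transcripts were called lower and 45 higher in Pkd1 KO at P7, with a median log2 fold change of -0.32, against 781 lower and 747 higher of 10626 and 0.033 for genes with 1 row. In the Pkd2 series Col6a3 had 89, 61 and 70 counts in WT and 103, 224 and 168 in KO (edgeR log2 fold change 1.198 ± 0.29, adjusted p = 0.0335), and Col18a1 was -0.60 ± 0.19 (adjusted p = 0.0671).

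Long transcripts as a whole were lower in Pkd1 KO at P7. Transcripts of at least 5000 bases, which include 31 of the 44 collagens, had a median log2 fold change of -0.20, with 292 called lower and 51 higher, and those under 2000 bases one of 0.20, with 116 lower and 379 higher, whereas in the Pkd2 series these were -0.034 and 0.036. With each library corrected for length and GC content, the class medians in Pkd1 KO were 0.24 for the fibrillar and -0.26 for the basement membrane class, against 0.026 and -0.56 uncorrected. The 8 collagens called in Pkd1 KO were called under the correction too, and Col11a1 was then called as well (log2 fold change 1.24, edgeR adjusted p = 0.0233).

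Col6a5, a type VI chain of skin, lung and gut, fell in both series. It gave 19.9, 2.19 and 21.3 CPM in Pkd1 WT and 1.75, 0.476 and 0.294 in Pkd1 KO (edgeR log2 fold change -4.10 ± 0.92, adjusted p = 0.0286), and 5.09, 8.44 and 2.099 in Pkd2 WT and 0.775, 1.14 and 1.32 in Pkd2 KO (edgeR log2 fold change -2.26 ± 0.51, adjusted p = 0.0252). The groups did not overlap, although the WT libraries of Pkd1 ran from 2.19 to 21.3 CPM, and the call held in 3 of 6 and 1 of 6 fits without 1 library. The abundant type VI chains Col6a1 and Col6a2 were -0.41 ± 0.13 and -0.47 ± 0.16 in Pkd1 KO (edgeR adjusted p = 0.0648 and 0.0833), and 0.08 ± 0.10 and 0.0052 ± 0.12 in Pkd2 KO (adjusted p = 0.66 and 0.99).

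Col26a1 was called in all 6 fits without 1 library in Pkd1. It gave 149, 145 and 155 CPM in Pkd1 WT at P7 and 81.0, 75.1 and 89.4 in Pkd1 KO (edgeR log2 fold change -0.87 ± 0.11, adjusted p = 0.00703), a tight spread with no overlap. In the Pkd2 series it gave 142, 205 and 185 and 155, 196 and 206 (edgeR log2 fold change 0.078 ± 0.15, adjusted p = 0.78). Col23a1, a transmembrane collagen, fell in Pkd2 KO, from 37.8, 28.2 and 69.4 to 15.5, 20.3 and 24.1 CPM (edgeR log2 fold change -1.17 ± 0.32, adjusted p = 0.0477), and was -1.41 ± 0.52 in Pkd1 KO (adjusted p = 0.099). Beyond Col12a1, edgeR called no FACIT collagen in either series, where 3 of the class in Pkd1 and 4 in Pkd2 had an unadjusted p under 0.05, Col12a1 included. Over all transcripts 4186 of 12527 in Pkd1 and 3750 of 12633 in Pkd2 did. DESeq2 called 2 in each, Col12a1 with Col14a1 in Pkd1 (edgeR adjusted p = 0.0722) and Col12a1 with Col16a1 in Pkd2 (edgeR adjusted p = 0.0663). The median log2 fold change of the class was 0.15 in Pkd2 and 0.39 in Pkd1.

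The Pkd1 result at P7 cannot be separated from sex. When a term for libraries holding Y-linked reads was added to a fit of all 18 Pkd1 libraries, none of the 38 collagens was called in Pkd1 KO at P7, whereas the same fit without the covariate called 14. The loss was not particular to collagens. Of all 12527 transcripts, 6 were called with the covariate and 3882 without it. For Col12a1 the log2 fold change was 1.41 with the covariate, for Col8a1 1.73 and for Col26a1 -0.66 (edgeR adjusted p = 0.17, 0.25 and 0.10). Within the Pkd1 groups, Y-linked reads differed only in WT at P1, where replicates 1 and 3 held them and replicate 2 did not. The covariate was therefore estimated from these 3 libraries, and it gives no separate measure of sex at P7. In Pkd2 the covariate left 5 calls of 9. Over all 12633 transcripts it left 1543, against 1776 in the fit of the 6 libraries of that day. Each comparison at P7 also holds a KO library with adrenal markers. Without it 2 collagens were called in Pkd1 KO and 4 in Pkd2 KO, where 457 of 12527 and 904 of 12633 transcripts were.

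Earlier, no collagen passed edgeR's test. At P1 none was called in Pkd1 KO, where 0% of transcripts were called, and none in Pkd2 KO, likewise against 0%. At P3 none was called in Pkd1 KO, against 0.00798%, and none in Pkd2 KO, against 0%. At an unadjusted p under 0.05 there were 0 and 3 in Pkd1 KO at P1 and P3, and 12 and 5 in Pkd2 KO. Over all transcripts there were 157 and 1748 of 12527 in Pkd1, and 708 and 565 of 12633 in Pkd2. DESeq2 called 0 in Pkd1 KO at both days, where it called 0.016% and 1.98% of transcripts, and 4 (Col3a1, Col5a1, Col6a1 and Col6a2) at P1 and 2 (Col11a1 and Col23a1) at P3 in Pkd2 KO, where it called 0.261% and 0.301%.

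The Pkd2 KO kidneys at P1 had 32 of 39 collagens above WT, with a median log2 fold change of 0.21 where all transcripts had 0.0017. Col5a1 had the smallest p. It gave 439, 382 and 457 CPM in WT and 589.5, 562 and 558 in KO (edgeR log2 fold change 0.42 ± 0.077, adjusted p = 0.48). Col3a1 gave 2467, 2426 and 2878 and 3418, 4422 and 3851 (edgeR log2 fold change 0.59 ± 0.11, adjusted p = 0.48). The groups did not overlap for either gene. Of the 6 stroma markers, 2 stood apart in these libraries too. Lum gave 17.99, 13.3 and 27.4 CPM in WT and 85.5, 98.9 and 40.0 in KO, and Dcn 5.34, 6.03 and 7.86 and 12.6, 17.0 and 11.4, without overlap. EdgeR called none of the 6 stroma markers, 2 had an unadjusted p under 0.05 and DESeq2 called 2. The summed stroma list was 435 to 468 CPM in WT and 488 to 542 in KO, without overlap, and the smooth muscle list 790.3 to 927 and 750.3 to 2187, with all 5 of its markers at a higher mean in KO and none called by edgeR or DESeq2 (3 at an unadjusted p under 0.05). Their part in the collagen values was not tested. In the Pkd1 series at P1, 28 of 38 were below WT, with a median of -0.083, and Col28a1 had the smallest p (edgeR log2 fold change -1.47 ± 0.87, adjusted p = 1), at 18, 2 and 2 counts in WT and 3, 4 and 3 in KO.

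At P3, Col26a1 had the smallest p in Pkd1, higher in KO at 132, 118 and 131 CPM against 97.0, 112 and 103 in WT (edgeR log2 fold change 0.29 ± 0.076, adjusted p = 0.18), and so on the other side of WT than at P7. In Pkd2 it was Col11a1, at 47.9, 40.0 and 36.04 CPM in KO and 26.4, 21.3 and 18.99 in WT (edgeR log2 fold change 0.89 ± 0.16, adjusted p = 0.94). Pkd2 P3 WT replicate 2, the library with 4891 CPM of adrenal markers, carried 303 CPM of Col5a3 against 18.1 and 18.5 in its group, 24.2 CPM of Col6a6 against 0.600 and 0.706, and 35.0 CPM of Col6a5 against 6.27 and 6.67, genes named here after their values were seen. Without that library edgeR called 0 collagens at P3. The basement membrane class as a whole had all 9 members above WT in Pkd2 KO at P3, with a median log2 fold change of 0.59, and Col4a4 gave 93.6, 46.3 and 94.8 CPM in WT, the lowest in that library, and 204, 114 and 154 in KO (edgeR log2 fold change 1.014 ± 0.31, adjusted p = 0.94).

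Whether the KO effect differed between days was tested as an interaction. At P7 against P1, 3 collagens were called in Pkd1, where 7.75% of transcripts were, and 2 in Pkd2, where 1.3% were. Col12a1 was called in both, with a KO effect that was 1.27 ± 0.33 (log2) greater at P7 in Pkd1 (edgeR adjusted p = 0.0303) and 2.35 ± 0.19 greater in Pkd2 (edgeR adjusted p = 2.86e-05). Col8a1 was called in both too, at 1.87 ± 0.48 and 3.41 ± 0.55 (edgeR adjusted p = 0.0273 and 0.00434). Col26a1 was called in Pkd1, at -0.91 ± 0.12 (edgeR adjusted p = 0.000831).

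Whether the KO effect at P7 differed between the Pkd1 and Pkd2 series was tested the same way. None of the collagens was called by edgeR, where 0% of transcripts were. At an unadjusted p under 0.05 there were 16, where 2130 of 12343 transcripts were. DESeq2 called 7, where it called 3.29% of transcripts. Without Pkd1 P7 WT replicate 3, edgeR called 11 collagens and 1449 of 12343 transcripts. With all 12 libraries the smallest p values were those of Col12a1, with an effect -1.66 ± 0.22 (log2) in Pkd1 relative to Pkd2 (edgeR adjusted p = 0.0749), and Col6a3, at -5.29 ± 0.94 (edgeR adjusted p = 0.10). The fibrillar genes called in Pkd2 KO and not in Pkd1 KO are not shown to differ between the series by this test: Col5a1 was -0.70 ± 0.16 (adjusted p = 0.12) and Col1a1 -0.54 ± 0.24 (adjusted p = 0.27).

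The ratio of partner chains was taken within each library. Over the 36 libraries the ratio of Col4a1 to Col4a2 per kb was between 1.25 and 1.68 (median 1.55), and that of Col6a1 to Col6a2 between 1.025 and 1.43 (median 1.14). Col1a1 to Col1a2, whose chains join in type I collagen with the former in excess, was between 0.472 and 0.947 (median 0.660). Col4a3 to Col4a4 ranged more widely, between 0.984 and 2.69 (median 1.35), and the 3 Pkd1 KO libraries at P7 held the highest values, at 2.40, 2.69 and 2.02, where the other libraries reached at most 1.85. This was not particular to that pair. In the same 3 libraries Col1a1 to Col1a2 was 0.844, 0.857 and 0.947, and at most 0.796 elsewhere. Col4a1 to Col4a2 was 1.31, 1.25 and 1.33 in them, and at least 1.345 elsewhere. Col6a1 to Col6a2, at 1.04 to 1.21, lay within the other libraries. In the Pkd2 series at P7 Col1a1 to Col1a2 was 0.472 to 0.576 in WT and 0.698 to 0.773 in KO. As a description over the same 36 libraries, which share series and day, the correlation of log2 CPM was 0.949 for Col4a1 with Col4a2, 0.964 for Col6a1 with Col6a2, 0.911 for Col4a3 with Col4a4 and 0.889 for Col1a1 with Col1a2.

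Genes that fold, cut, cross-link and bind collagen were read from a list of 43, of which 32 were tested. The others did not pass the count filter. For any of them with several rows, a low level and lost reads cannot be told apart. In Pkd2 KO at P7, 14 were called, 12 higher and 2 lower, and in Pkd1 KO 7, 4 higher and 3 lower, with the shares of all transcripts given above for these 2 comparisons. The median log2 fold change of the 32 was 0.19 in Pkd2 and 0.14 in Pkd1.

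Of the 14 tested genes of folding and hydroxylation, 7 were called in Pkd2 KO (5 higher) and 4 in Pkd1 KO (2 higher). P4ha3, a subunit of the prolyl hydroxylase that stabilizes the helix, gave 3.12, 1.12 and 1.70 CPM in Pkd2 WT and 8.84, 8.43 and 11.0 in Pkd2 KO (edgeR log2 fold change 2.26 ± 0.35, adjusted p = 0.00616), and 2.80, 3.82 and 3.73 and 13.5, 7.62 and 8.96 in the Pkd1 series (edgeR log2 fold change 1.54 ± 0.30, adjusted p = 0.0192). Colgalt2, which adds galactose to collagen lysines, went the other way, with 29.9, 32.9 and 34.6 and 16.7, 17.1 and 16.7 CPM in Pkd2 and 23.7, 25.1 and 22.2 and 11.0, 9.84 and 13.9 in Pkd1 (edgeR log2 fold change -0.94 ± 0.094, adjusted p = 0.00123 and log2 fold change -1.03 ± 0.19, adjusted p = 0.0164). P3h2, which acts on basement membrane collagens, was also lower in both (edgeR log2 fold change -0.47 ± 0.079, adjusted p = 0.00838 in Pkd2 and log2 fold change -0.83 ± 0.14, adjusted p = 0.0143 in Pkd1), and P3h3 was higher in both (edgeR log2 fold change 0.43 ± 0.061, adjusted p = 0.00472 and log2 fold change 0.50 ± 0.11, adjusted p = 0.0261). The groups did not overlap for any of the 4.

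Of the 11 tested genes of cleavage and cross-linking, 5 were called in Pkd2 KO, all higher, and 3 in Pkd1 KO, 2 of them higher. Loxl1, a lysyl oxidase that cross-links elastin and collagen, gave 140.5, 167 and 110.4 CPM in Pkd2 WT and 444, 348 and 373 in Pkd2 KO (edgeR log2 fold change 1.49 ± 0.15, adjusted p = 0.00139), and 198, 119 and 262 and 339.6, 434 and 429 in the Pkd1 series (edgeR log2 fold change 1.06 ± 0.25, adjusted p = 0.0342). Adamts2, which cuts the amino end of procollagen, was 38.3, 44.2 and 43.4 and 72.5, 90.3 and 99.96 CPM in Pkd2 and 48.1, 46.1 and 58.3 and 81.5, 72.6 and 76.7 in Pkd1 (edgeR log2 fold change 1.07 ± 0.12, adjusted p = 0.00204 and log2 fold change 0.60 ± 0.13, adjusted p = 0.0234). Loxl2, another lysyl oxidase, rose in Pkd2 KO (edgeR log2 fold change 0.68 ± 0.12, adjusted p = 0.0095), and Tgm2, which cross-links matrix proteins, fell in Pkd1 KO (edgeR log2 fold change -0.68 ± 0.16, adjusted p = 0.0295).

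Of the 7 tested receptors, Itgb1, the beta chain of the collagen-binding integrins, rose in Pkd2 KO (edgeR log2 fold change 0.31 ± 0.074, adjusted p = 0.0293), as did its partner Itga11, which binds fibrillar collagen (edgeR log2 fold change 0.75 ± 0.20, adjusted p = 0.0457). Of the receptors in Pkd2 KO, Mrc2, which takes up collagen, had the third smallest p (edgeR log2 fold change 0.21 ± 0.07, adjusted p = 0.0846). None of the 7 was called in Pkd1 KO by edgeR, where 1 had an unadjusted p under 0.05 (Itga2, edgeR log2 fold change -1.50 ± 0.62, adjusted p = 0.13), followed by Itgb1 (edgeR log2 fold change 0.24 ± 0.14, adjusted p = 0.26) and Itga1 (edgeR log2 fold change -0.18 ± 0.13, adjusted p = 0.35).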

How the data were processed

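RNA-Seq of whole kidneys was analysed in 36 libraries, 3 in each of 12 groups. Per the labels and the study's methods, the authors made the deposited counts with CASAVA 1.8.2, TopHat2 2.1.0 (mm10) and HTSeq, as unnormalized read counts per RefSeq transcript. Whether counting used strand is not given in the sources used here.

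Counts were fitted with edgeR 4.0.16 in R 4.3.3 (TMM, quasi-likelihood test, Benjamini-Hochberg adjustment over all transcripts), after transcripts that did not reach 10 counts in 3 libraries were removed. KO was compared with WT at each day on the 6 libraries of that day, and WT days on the 9 WT libraries of a series. Interactions with day used the 18 libraries of a series, and the interaction between series used the 12 libraries at P7. CPM values were scaled by TMM over all 36 libraries. DESeq2 1.42.0, other filters, a length and GC correction, sex and leaving out each library were alternatives. The scripts were tested on simulated data. Figures used matplotlib 3.10.9.

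The members and lists were chosen with earlier results of these data known. Named genes were those called in KO at P7, types I, III and IV whatever their result, the smallest p at P1 and P3, the strongest changes in WT, the highest levels per class, and the smallest p of each synthesis list. The other genes called in WT, Col8a2, Col9a2, Col5a3, Col6a1, Col6a2 and Col6a6 were added after their values were seen. Same-numbered replicates deviated together at P1 in the Pkd1 series only (correlations 0.347, 0.205 and 0.519), where no collagen was called with the replicate block either. No pair of libraries of the same group agreed within sampling noise, and pairs across groups were not compared.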

Additional observations from a re-analysis of the deposited data

Results flagged for a closer look

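The effect of KO on Col12a1 differed between P7 and P1 in both series by edgeR's interaction test, by 1.2731 on the log2 scale in Pkd1 and 2.3526 in Pkd2. For Col8a1 the difference was 1.8663 in Pkd1 and 3.4145 in Pkd2. For Col26a1 it was -0.9067 in Pkd1, where KO lay under WT at P7 in all 3 libraries. With the libraries that carried adrenal markers left out, an alternative chosen after seeing the data, the Pkd2 differences were 2.3187 for Col12a1 and 3.0427 for Col8a1, and both were still called. In the Pkd1 series the Y-linked counts moved with genotype at P7, and their part in the differences cannot be told apart.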

How the results depend on the processing

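Of 416 values of called members under other settings, 363 were still called, 53 were not and 0 reversed, and of 381 without 1 library 275 were still called, 106 were not and 0 reversed. With DESeq2 the collagens called were 14 in Pkd1 KO at P7, 15 in Pkd2 KO at P7, 4 in Pkd2 KO at P1, 2 in Pkd2 KO at P3, 2 in each WT series at P3 against P1, 5 for the Pkd1 day interaction and 7 for the difference between series. For Pkd1 KO at P7 there were 5 with at least 10 counts in every library, 14 with all 18 libraries in one fit and 0 with the Y-linked covariate. Over all transcripts these settings called 1734 of 10578, 3882 of 12527 and 6 of 12527. In the Pkd1 series that covariate was estimated from the WT libraries at P1 alone. The covariate left 5 in Pkd2 KO at P7, 3 in Pkd1 WT at P7 against P1, 1 in Pkd2 WT at P3 against P1 and 0 for the Pkd1 day interaction. Over all transcripts it left 1543, 1012, 144 and 0 in these comparisons. At least 2-fold left 5 in Pkd1 WT at P7 against P1, and the length and GC correction gave 21. In Pkd2 WT at P3 against P1, no low-count filter and 1 fit of all 18 libraries each gave 1. For the difference between series, no low-count filter and the length and GC correction each gave 1. Of synthesis and receptor genes, Pkd1 KO at P7 had 3 at 2-fold, 11 in 1 fit of all 18 libraries and 0 with the covariate, and Pkd2 KO at P7 had 4 at 2-fold and 8 with the covariate.

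Same-numbered libraries deviated together in Pkd1 at P1 only, and the labels do not say that a number marks a litter. The paper used littermates of matched age as controls, and low correlations cannot show that no litter was shared. The replicate block gave 5 collagens in Pkd1 KO at P7, 5 for the Pkd1 day interaction and 4 synthesis and receptor genes in Pkd1 KO at P7, and moved no other count by over 1.5 times.

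Class medians moved too. In Pkd1 KO at P7 the length and GC correction gave 0.2381 for the fibrillar and -0.2605 for the basement membrane class, 0.23 and -0.2607 with the replicate block as well, and the covariate gave -0.2264 for the basement membrane class. In Pkd2 KO the covariate gave 0.4504 for the fibrillar and -0.1849 for the basement membrane class, and at least 10 counts in every library gave 0.3382 for the FACIT class. The cause was not tested.

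Leaving out 1 library gave 1 to 15 collagens in Pkd1 KO at P7 (1 without WT replicate 1, 15 without WT replicate 3, and 2, 3 and 4 without KO replicates 1, 2 and 3) and 4 to 11 in Pkd2 KO at P7 (4 without WT replicate 1, KO replicate 2 or KO replicate 3). The synthesis and receptor genes were 0 to 10 in Pkd1 (0 without WT replicate 1 or KO replicate 1, 1 without KO replicate 2 and 4 without KO replicate 3) and 7 to 12 in Pkd2 (7 without WT replicate 1, 9 without WT replicate 2 and 8 without KO replicate 2 or 3). In WT, P7 against P1 gave 6 to 17 in Pkd1 (6 without P7 replicate 1) and 3 to 12 in Pkd2 (3 without P1 replicate 2 or 3 and 5 without P7 replicate 1), and P3 against P1 gave 0 to 1 in Pkd2 (1 without P1 replicate 1). The Pkd1 day interaction gave 1 to 8 (1 without P1 WT replicate 1, P1 KO replicate 2, P7 WT replicate 1 or P7 KO replicate 1, 6 without P1 KO replicate 3 and 8 without P7 WT replicate 3), the Pkd2 day interaction 2 to 3, and the difference between series 0 to 11 (11 without Pkd1 P7 WT replicate 3 and 1 without Pkd1 P7 KO replicate 3). The medians in Pkd1 KO were -0.0457 to 0.0908 for the fibrillar, -0.7824 to -0.3484 for the basement membrane and 0.1589 to 0.5539 for the FACIT class, and in Pkd2 KO 0.2145 to 0.4786 (the highest without KO replicate 1), -0.771 to 0.1257 (the highest without WT replicate 3) and 0.073 to 0.2508. With 3 libraries a group, differences within these ranges were not resolved. Calls over all transcripts moved in the same fits, from 156 to 3191 in Pkd1 KO at P7 and from 667 to 2059 in Pkd2 KO at P7.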
